A study of Mus musculus with 8 samples.

Results

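The genes described here are 43 mouse genes of the extracellular matrix with roles in repair of the injured heart: 21 collagen genes and 22 genes for other matrix proteins, matrix proteases and their inhibitors. They were chosen by symbol as a list of collagens and repair matrix genes. All 43 were found once, as protein-coding genes, among the 37273 genes annotated on the 19 autosomes, X and Y of the mm9 mouse genome, of which 22367 are protein-coding.

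After a myocardial infarction (MI), dead muscle is replaced by a scar of fibrillar collagen that cardiac fibroblasts lay down on a provisional matrix rich in fibronectin and matricellular proteins. Matrix metalloproteinases (MMPs) cut this matrix, their tissue inhibitors (TIMPs) restrain them, and crosslinking enzymes such as lysyl oxidase stiffen the scar. BRG1 is an ATPase of SWI/SNF, a family of chromatin remodellers that reposition nucleosomes at promoters and enhancers or remove them. In ChIP-seq, chromatin is pulled down with an antibody, here anti-SNF2b/Brg1, and the attached DNA is sequenced.

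The study comprised 8 libraries from hearts of adult C57BL/6 mice aged 10 to 12 weeks by the labels (C57BL/6J and 12 to 14 weeks in the paper's methods), for which no other allele was named. Mice were given the peptide thymosin β4 (Tβ4) at 12 mg per kg, or PBS as vehicle, each day for 1 week, and MI was then induced by tying off the left anterior descending artery. Both groups were dosed again on days 0 and 2 of injury, and hearts were taken 4 days after MI. Each of the 4 groups (BRG1 ChIP and input, Tβ4- and PBS-primed) held 2 libraries. Hearts were processed whole, so signal from cardiomyocytes, fibroblasts, endothelium, epicardium and leukocytes was mixed, and binding in few cells cannot be told apart from weak binding in many.

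The values come from 1 deposited list, which gives where BRG1 ChIP signal exceeded input in injured hearts primed with Tβ4. The mode of region calling is not certain, so enrichment here means only presence in that list. It held 524614 regions with a median length of 600 bp, which together covered 25.8% of the genome. The longest region spanned 3038549 bp, and 674135270 of the 684310108 bases in regions were sequenced. The list gives positions alone, with no score and no separation of the duplicates, so its depth is unknown and no value below has a replicate error. Its name appears to carry a cutoff, but without scores what that cutoff means could not be checked. PBS-primed hearts were not analysed here, so nothing below is a difference between treatments. For each gene, the covered share is the percentage of the gene body and 5 kb on either side that lies in regions, and the region density counts regions per kb of the same window.

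A region near a matrix gene was the rule, as it was for genes at large. Of the 43 matrix genes, 42 had at least 1 region in that window, against 95.1% of all genes, and 39 had at least 1 within 5 kb of the transcription start site (TSS), against 89.9% of all genes. The TSS itself lay inside a region in 7 of the 43 (16.3%, 95% Clopper-Pearson interval 6.81 to 30.7), beside 24.7% of all genes and 24.2% of protein-coding genes, so starts in general were no more covered than the genome (25.8%). Counting the start of any annotated transcript, 17 of the 43 (39.5%) had a start in a region, beside 32.8% of all genes. The order thus turned, but more starts give a gene more chances, and genes were not matched on their number of starts. These shares lie near the background, and the interval for the annotated TSS includes it. What differed among the matrix genes was how much of each gene was covered.

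The median covered share of the 43 genes was 29.4%, beside 24.0% for all genes and 25.2% for protein-coding genes. Its 95% order-statistic interval, taken over genes, was 22.2 to 34.1, and the quartiles of the 43 genes were 17.8% and 35.8%. Protein-coding genes of at least 10 kb, closer in length to these mostly long genes, had a median of 26.3%, which lies inside the interval of the matrix genes. Of the 43 genes, 26 exceeded the all-gene median, as did 53.3% of protein-coding genes and 57.8% of those of at least 10 kb. More than 50% of the window was covered at 3 matrix genes, Thbs2, Col1a2 and Col3a1 (6.98%), beside 10.2% of all genes but 4.44% of protein-coding genes of at least 10 kb. The median region density was 0.239 regions per kb (0.198 to 0.275) beside 0.222 for all genes, and 0.168 beside 0.172 once regions within 500 bp were joined. With the flanks included, the genes as a list therefore sat close to other genes, while single genes ranged from no coverage to about 60.0%. Over the gene body alone, the gap from all genes was wider, 29.3% beside 19.0%, and 32 of the 43 exceeded the all-gene median.

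**Figure D1:**
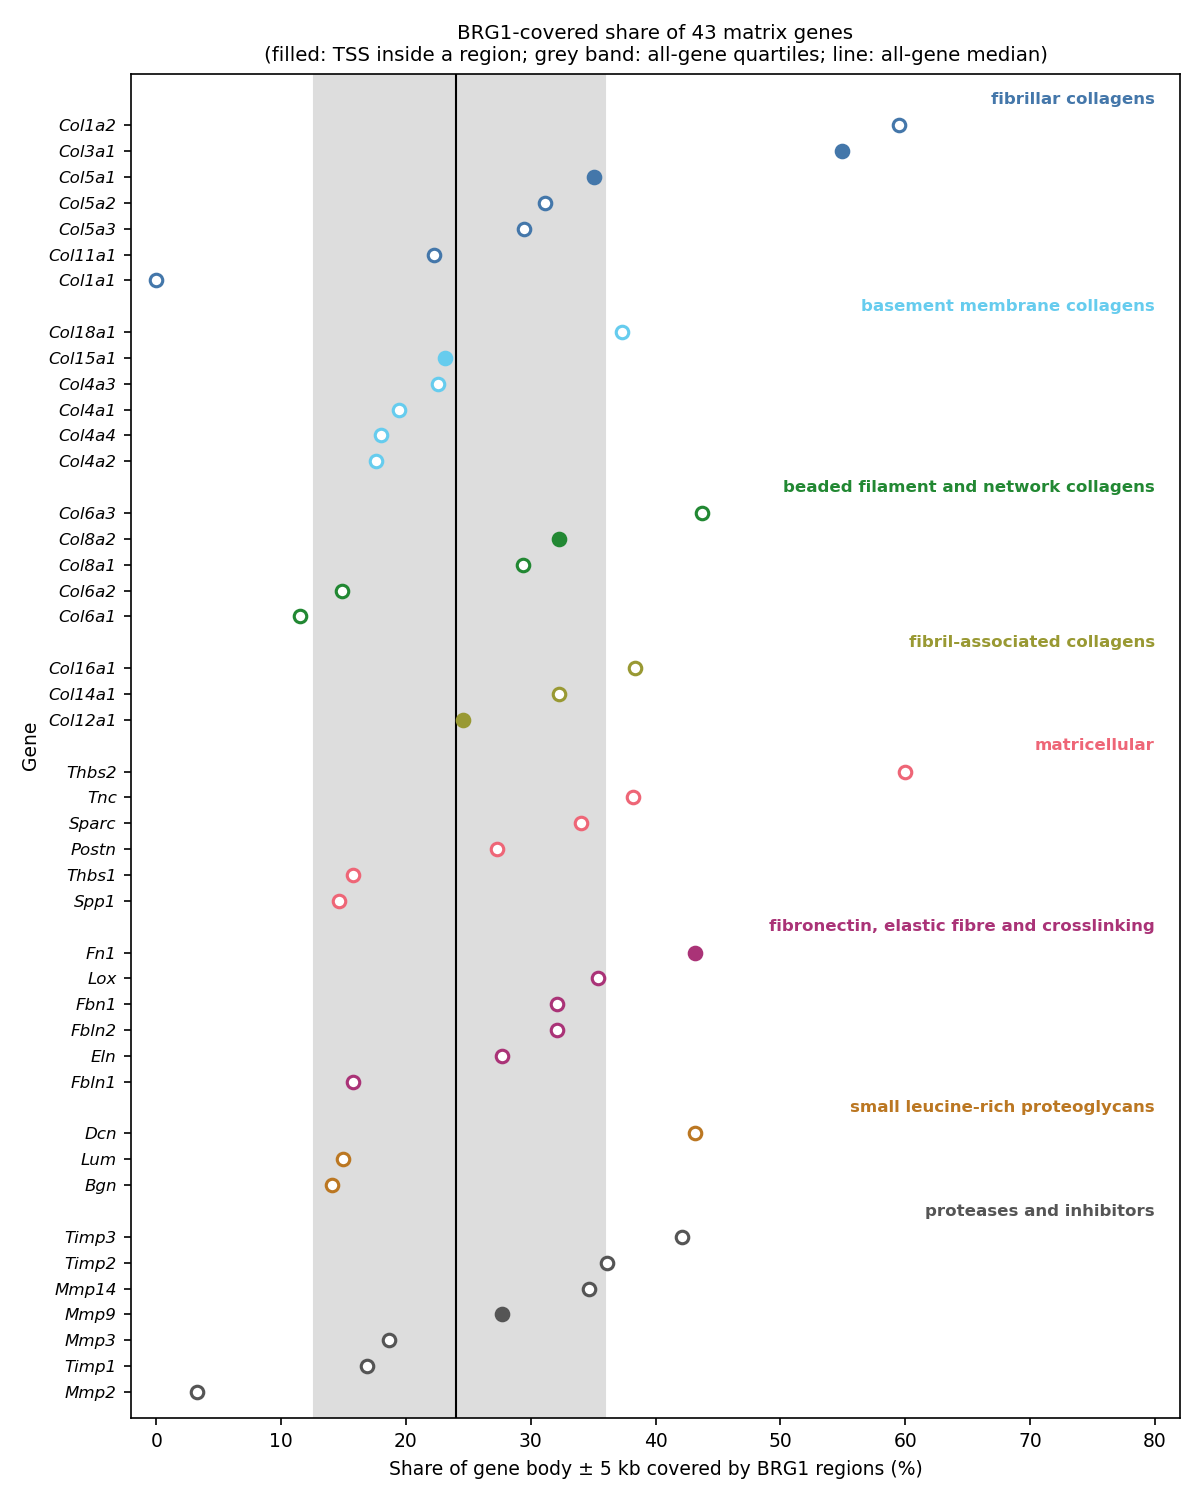
Covered share of the gene body with 5 kb on either side (x axis, %) for each of the 43 matrix genes (y axis), grouped by role; filled points mark the 7 genes with the TSS inside a region, and the grey band and line give the quartiles and median of all genes. Thbs2, Col1a2 and Col3a1 lie above 50%, and Col1a1 lies at 0%.

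To allow for gene length, each gene was placed among the 200 annotated genes nearest to it in length. The median percentile of the 43 genes for covered share was 60.5 (35.5 to 73.5), and 25 of them lay above the middle of their length-matched genes. With the gene body alone the median percentile was 60.0, so the wider gap was not seen among genes of like length. Above the 90th percentile were 6 genes: Col1a2 (99.5), Col3a1 (98.0), Thbs2 (98.0), Col6a3 (96.5), Fn1 (94.0) and Dcn (94.0). Below the 10th percentile were 3 genes, Col1a1 (0.5), Mmp2 (2.5) and Fbln1 (7.5). Thus the genes at either end included both subunits of type I collagen, 1 at each end. Among 50 genes nearest in GC content, drawn from the 1000 nearest in length, 8 genes lay above the 90th percentile and 3 below the 10th. Dcn (86.0) and Fbln1 (12.0) were then no longer among them. Col5a1, Col16a1 and Timp3 (each 92.0) were among the highest, and Col4a4 (8.0) was among the lowest.

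Fibrillar collagens form the tensile fibres of the scar. The 7 genes had a median covered share of 31.1%, with 5 above the all-gene median, and they held both the most complete and the emptiest collagen gene. Col1a1 and Col1a2 encode the α1 and α2 chains that assemble into type I collagen, the main collagen of the infarct scar. Col1a2 (chr6:4454814-4491543, plus strand) carried 9 regions over 59.5% of its window, whereas Col1a1 (chr11:94797538-94814356, plus strand) carried none. The paper lists Col1a2 among genes with BRG1 enrichment in both PBS- and Tβ4-primed injured hearts.

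The nearest regions to the Col1a1 TSS lay 15119 bp upstream and 28472 bp downstream, past the end of the 16.8-kb gene. This region-free stretch, chr11:94782420-94826009, was 43.6 kb long and held no unsequenced base. Of the 524593 gaps between neighbouring regions in the list, unsequenced stretches included, 328 were at least as long, and the median gap was 1590 bp. Genes of this length without a region were rare: 2 of the 200 genes nearest to Col1a1 in length and 42 of 13506 protein-coding genes of at least 10 kb had none in their windows. The 500 kb on either side of the Col1a1 window were covered to 24.8%, close to the genome share.

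The Col1a2 promoter lay outside regions although much of the gene was covered, and the 250 bases before its annotated start (chr6:4454564-4454813, mm9, plus strand) are given here for that contrast, with matches to the motifs searched in capitals. They have 1 CCAAT, at -191 to -187 bp from the TSS, and overlap no annotated exon.
Col1a2: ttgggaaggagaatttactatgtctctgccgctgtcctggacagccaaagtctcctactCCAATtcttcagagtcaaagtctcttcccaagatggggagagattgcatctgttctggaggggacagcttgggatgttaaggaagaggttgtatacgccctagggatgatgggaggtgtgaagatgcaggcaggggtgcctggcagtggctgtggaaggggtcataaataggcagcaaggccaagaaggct

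Along Col1a2, the nearest regions to the TSS began 2736 bp downstream and ended 2605 bp upstream. From 5′ to 3′, 5 equal parts of the gene were covered to 42.9%, 75.8%, 97.1%, 17.0% and 73.2%, with regions of 5430 and 6750 bp inside the gene. Its longest region, 9540 bp at chr6:4486170-4495709, ran from 31.4 to 40.9 kb downstream of the TSS, over exons 42 to 48 of 48 (exons merged over transcripts) and 4166 bp past the gene end. A further region of 6360 bp followed it. The 5 kb downstream of Col1a2 were covered to 94.6%, against 12.0% of the 5 kb upstream, so most of the coverage lay in the body and past the 3′ end.

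Col3a1 encodes type III collagen, the fine fibrillar collagen of early scar. It had 10 regions over 55.0% of its window, and 78.4% of the bases within 5 kb of the TSS were covered. A region of 8730 bp (chr1:45366480-45375209) ran from 1903 bp upstream of the TSS to 6826 bp downstream, over exon 1 and into the first intron. A second long region, 9000 bp at chr1:45400200-45409199, covered exons 42 to 50 of 50 and 2648 bp past the gene end. Both ends of Col3a1 were therefore covered by long regions, whereas those of Col1a2 lay inside the gene and at its 3′ end. The 250 bases before the Col3a1 TSS (chr1:45368133-45368382, mm9, plus strand) lie wholly inside the first of these regions and outside annotated exons. They contain GGAATG on the reverse strand at -168 to -163 and TATAAA at -117 to -112, in capitals.
Col3a1: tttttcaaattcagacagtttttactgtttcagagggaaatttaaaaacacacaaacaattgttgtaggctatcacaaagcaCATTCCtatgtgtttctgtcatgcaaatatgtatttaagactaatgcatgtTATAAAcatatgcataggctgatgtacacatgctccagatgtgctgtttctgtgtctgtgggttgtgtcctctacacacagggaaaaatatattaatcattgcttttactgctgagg

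The other fibrillar genes encode type V and type XI collagen, minor chains that set the diameter of type I and III fibrils. Col5a1 had 39 regions over 35.1% of its window, with its TSS inside a region of 2760 bp that spanned 1095 bp upstream and 1664 bp downstream. Its longest region, 9720 bp at chr2:27886740-27896459, was the third longest at any of the 43 genes and covered exons 65 and 66 of 66 and 1425 bp past the end. A long region over the last exons was thus shared by Col1a2, Col3a1 and Col5a1, a resemblance noticed after their values were seen. Col5a2 (31.1%) and Col5a3 (29.4%) were near the middle of the list. Col11a1 had 36 regions over 22.2% of its window, but 92.6% of the 5 kb upstream was covered, by regions ending 189 bp before the TSS.

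**Figure D2:**
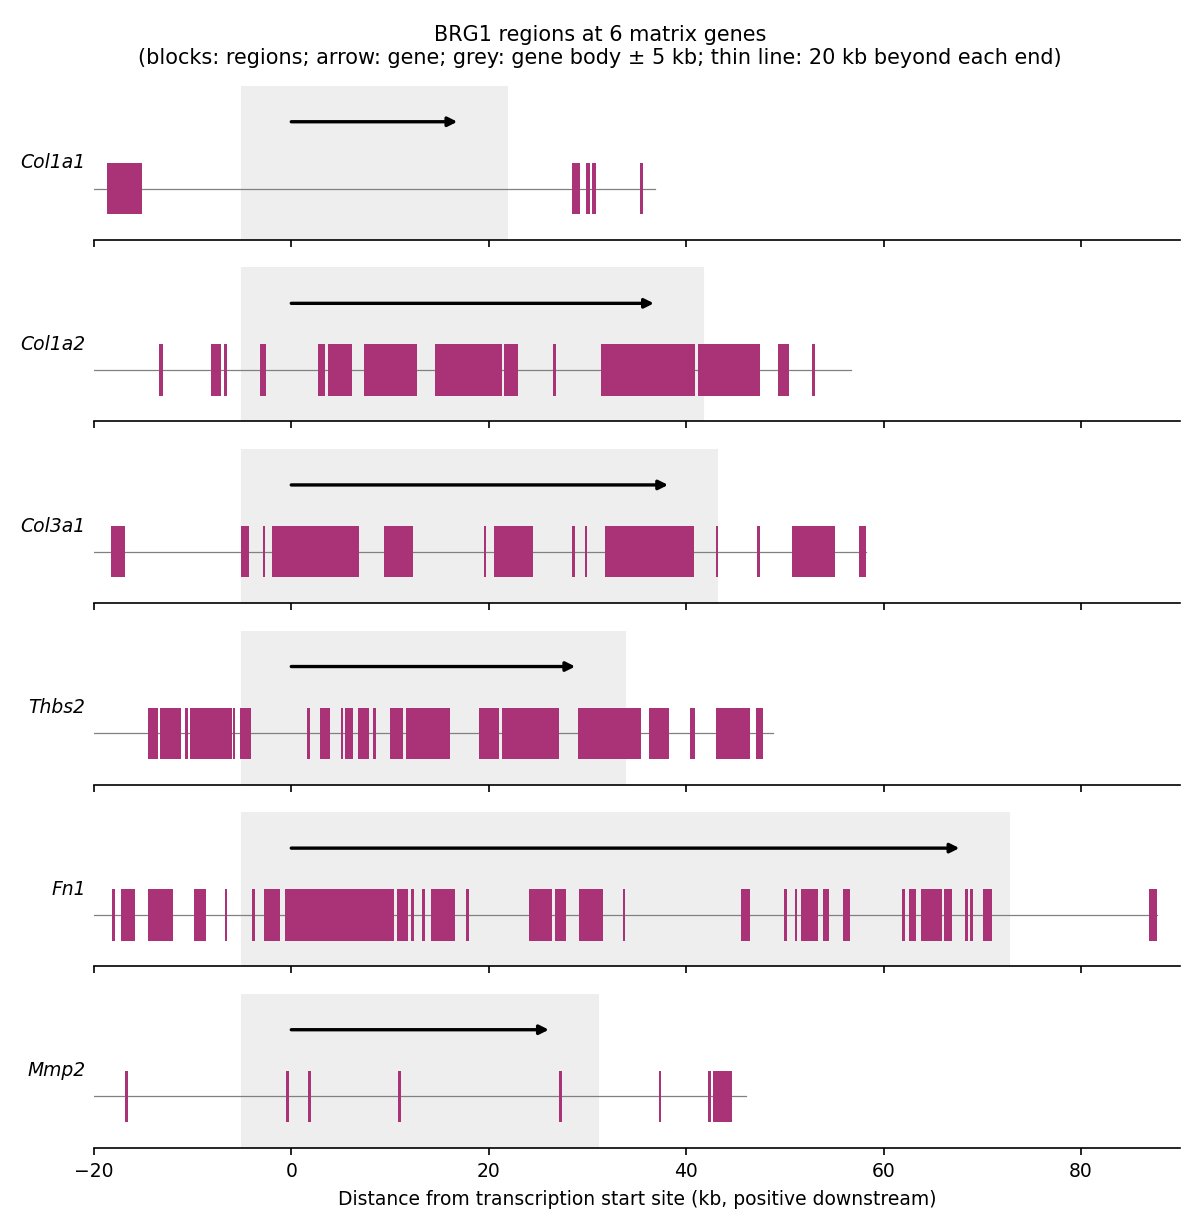
BRG1 regions (blocks) at 6 matrix genes by distance from the TSS (x axis, kb), with the gene as an arrow, the window of gene body and 5 kb on either side in grey, and 20 kb shown beyond each end of the gene. Col1a1 has no region in its window, Mmp2 has 4 short ones, and long regions lie inside and at the 3′ end of Col1a2, at both ends of Col3a1 and over the start of Fn1.

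Basement membrane collagens form the sheets around cardiomyocytes and beneath endothelium. This was the least covered collagen group, with a median of 21.0% over 6 genes and 1 gene above the all-gene median. That gene was Col18a1, source of the angiogenesis inhibitor endostatin, with 38 regions over 37.4% of its window. Col15a1 had 23.1% of its window covered but 93.9% of the 5 kb upstream, and its TSS lay inside a region of 1920 bp. The 4 type IV genes ranged from 17.6% at Col4a2 to 22.6% at Col4a3, with Col4a1 at 19.4% and Col4a4 at 18.0%.

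The type IV genes lie in head-to-head pairs whose chains are made together from shared promoters. Col4a1 and Col4a2 on chromosome 8 start 21 bp apart with annotated ends that overlap by 22 bp, and Col4a4 and Col4a3 on chromosome 1 start 72 bp apart. No region lay within 1000 bp of the midpoint between the starts of either pair. At Col4a1 and Col4a2, the nearest regions lay 1777 bp downstream of the Col4a1 TSS and 4575 bp downstream of the Col4a2 TSS. At Col4a4 and Col4a3, they lay 4705 bp downstream of the Col4a4 TSS and 2694 bp downstream of the Col4a3 TSS. Both shared promoters were thus free of called regions. An uncovered start was common, since the TSS lay inside a region at only 24.7% of all genes. The share of all genes without a region within 1000 bp is not given here. The 71 bases between the Col4a4 and Col4a3 starts (chr1:82583425-82583495, mm9, shown on the plus strand, the strand of Col4a3) are in no exon and match none of the 6 motifs searched, so they carry no capitals; their GC content is 69.0%.
Col4a4/Col4a3: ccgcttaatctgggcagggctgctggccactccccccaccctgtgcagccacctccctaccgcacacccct

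Coverage near the paired starts was uneven between partners. Within 10000 bp of the midpoint, the Col4a1 side was covered to 19.1% and the Col4a2 side to 5.4%. On the same reach, the Col4a4 side was covered to 44.4% and the Col4a3 side to 19.5%, but within 5000 bp the order was the opposite, 5.2% and 39.0%, so which partner was more covered depended on the reach. Over both whole genes with 5 kb on either side, the Col4a1 and Col4a2 locus of 260.9 kb held 47 regions over 18.8% of its length, and the Col4a4 and Col4a3 locus of 281.3 kb held 41 over 20.2%. Since the windows of partners overlap, their regions near the starts were counted for each.

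**Figure D3:**
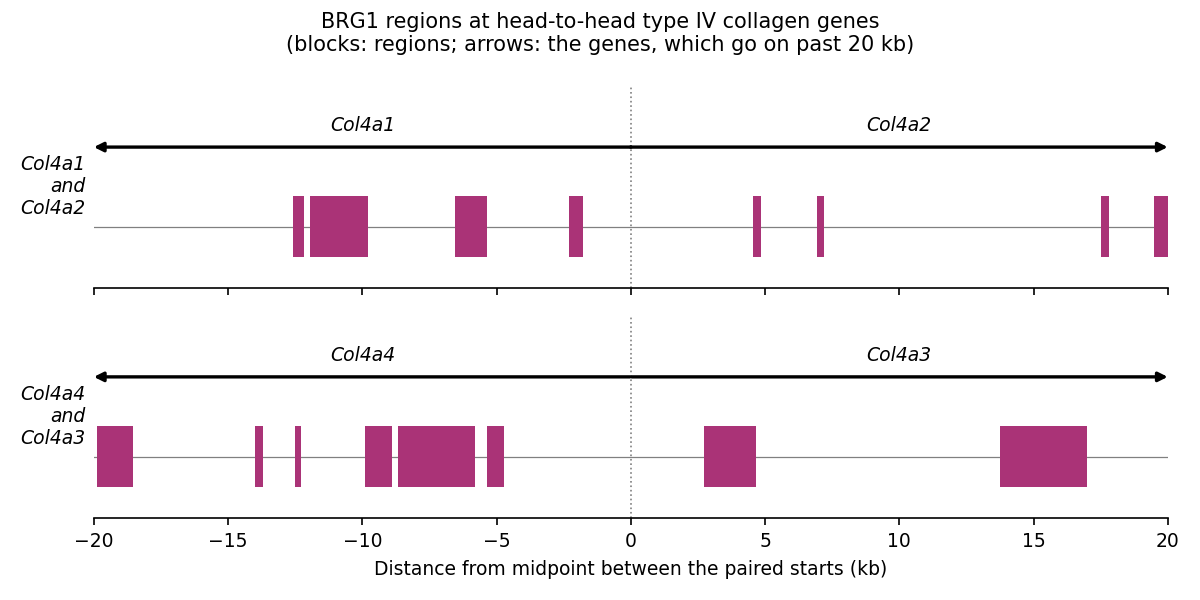
BRG1 regions (blocks) around the shared starts of the head-to-head pairs Col4a1 and Col4a2 (top) and Col4a4 and Col4a3 (bottom), by distance from the midpoint between the starts (x axis, kb), with arrows for the direction of each gene. The nearest regions lie 1766 and 4565 bp from the midpoint in the first pair and 4741 and 2730 bp in the second.

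Beaded filament and network collagens link cells to the fibrils around them. Type VI collagen is built from the products of Col6a1, Col6a2 and Col6a3, and these differed widely. Col6a3 had 14 regions over 43.8% of its window, among them the second longest region at any of the 43 genes, 10440 bp at chr1:92718390-92728829 over exons 2 to 4 of 44. Col6a1 and Col6a2, which lie 85161 bp apart on chromosome 10 in the same direction, had covered shares of 11.5% and 14.9%. No region lay within 5 kb of the annotated TSS of Col6a2 or Col6a3, although 4 of the 9 annotated transcript starts of Col6a3 lay inside a region. Type VIII collagen, a short-chain collagen of vessel walls, had 29.4% at Col8a1 and 32.3% at Col8a2, and the Col8a2 TSS lay in a region of 390 bp.

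Fibril-associated collagens decorate fibril surfaces and link them to the rest of the matrix. All 3 genes exceeded the all-gene median, at 38.4% for Col16a1, 32.2% for Col14a1 and 24.6% for Col12a1. Col14a1, with 57 regions in the window of its 213-kb gene body, had the highest number of regions in the list and is also the longest gene. The Col12a1 TSS lay inside a region of 2640 bp that reached 2181 bp upstream, and 91.6% of its upstream 5 kb was covered.

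Matricellular proteins are secreted into the healing matrix, where they modulate cell behaviour more than they bear load. The 6 genes had a median covered share of 30.7%. None had its annotated TSS inside a region, with an interval of 0 to 45.9% that includes the 24.7% of all genes. Of the annotated transcript starts, 1 of 5 at Sparc and 1 of 2 at Thbs1 lay inside a region. Thbs2, whose product thrombospondin-2 restrains angiogenesis and matrix breakdown, had the highest covered share of the 43 genes, 60.0% from 12 regions (gene on the minus strand of chromosome 17). The 500 kb on either side of its window were covered to 24.3%, so the gene stood 35.7 points above its surroundings. Its promoter was uncovered: the nearest regions were 4061 bp upstream and 1580 bp downstream of the TSS. The 250 bases before the TSS (chr17:14831270-14831519, mm9, minus strand) hold CCAAT on both strands and TATAAA on the reverse strand, in capitals, in no exon.
Thbs2: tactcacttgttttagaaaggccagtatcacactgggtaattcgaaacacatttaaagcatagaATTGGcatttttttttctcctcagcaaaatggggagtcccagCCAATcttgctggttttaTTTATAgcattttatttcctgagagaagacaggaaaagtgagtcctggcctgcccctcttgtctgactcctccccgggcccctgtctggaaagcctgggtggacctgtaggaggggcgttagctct

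Tnc, for the de-adhesive protein tenascin-C, had 20 regions over 38.2% of its window, although the nearest region upstream of its TSS was 17750 bp away. Sparc, a collagen-binding protein needed for scar assembly, was covered to 34.1%. Postn, for periostin of activated fibroblasts, was covered to 27.3% by 10 regions, of which the closest lay 482 bp upstream and 119 bp downstream of the TSS. Thus regions stood on both sides of the Postn start without including it. The lowest in the group were Thbs1 (15.8%), for thrombospondin-1, which activates latent TGF-β, and Spp1 (14.6%), for osteopontin of macrophages in the infarct.

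Fibronectin, the elastic fibre proteins and lysyl oxidase make and stiffen the provisional and elastic matrix. These 6 genes had a median covered share of 32.1%, and 5 of them exceeded the all-gene median. Fn1 (minus strand of chromosome 1), for fibronectin, led with 25 regions over 43.1% of its window and 75.1% of the bases within 5 kb of the TSS. Its TSS lay inside the longest region at any of the 43 genes, 11010 bp at chr1:71689350-71700359, which reached 585 bp upstream and 10.4 kb downstream, over exons 1 to 7 of 46. The upstream part overlaps an exon of Apol7d, annotated on the opposite strand, so the middle 250 bases of the region are shown instead (chr1:71694730-71694979, mm9, minus strand, 4795 to 5044 bp downstream of the TSS and in no exon). They match none of the motifs searched.
Fn1 region: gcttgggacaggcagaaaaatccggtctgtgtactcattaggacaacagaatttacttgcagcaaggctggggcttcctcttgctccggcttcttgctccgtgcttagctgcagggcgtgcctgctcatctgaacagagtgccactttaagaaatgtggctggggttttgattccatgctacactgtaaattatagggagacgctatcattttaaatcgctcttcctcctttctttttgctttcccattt

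Lox, for lysyl oxidase, had 4 regions over 35.4% of its window. Fbn1 and Fbln2, for fibrillin-1 and fibulin-2 of the microfibrils, each had 32.1% covered, and Eln, for elastin, had 27.7%. Fbln2 had no region within 5 kb of its annotated TSS, the closest being 32500 bp upstream and 18381 bp downstream. Of its 7 annotated transcript starts, 3 lay inside a region. Fbln1, for fibulin-1, was the lowest at 15.8%, which was 12.8 points below the 500 kb on either side.

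Small leucine-rich proteoglycans bind collagen and govern fibril assembly. Dcn, for decorin, was covered to 43.2% by 14 regions, whereas Lum, for lumican, and Bgn, for biglycan, were covered to 15.0% and 14.1%. Dcn and Lum lie 47357 bp apart in the same direction on chromosome 10, and the gap between them held 11 regions over 17.9% of its length. With the flanks included, high coverage at Dcn thus lay beside low coverage at Lum. Over the gene body alone, Lum was covered to 25.8%, above the all-gene median of 19.0% for gene bodies, and Dcn to 45.6%. Bgn had one of the higher region densities, 0.358 per kb, from short regions of at most 960 bp, so density and covered share differed there.

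Proteases and inhibitors set how fast the matrix is turned over. Of the MMP genes, Mmp14, for a membrane-bound collagenase that activates MMP2, had the highest covered share (34.7%) and the highest region density of the list, 0.407 per kb. Mmp9, for the gelatinase of neutrophils and macrophages, had 27.7% covered and its TSS inside a short region of 270 bp. Mmp3, for stromelysin-1, had 18.6%. Mmp2, for the gelatinase of fibroblasts, had 4 regions of at most 360 bp over 3.24% of its window, the lowest share after Col1a1 and 25.1 points below its surroundings. The Mmp2 region nearest the TSS is short enough to show whole (chr8:95350710-95350949, mm9, plus strand, 517 to 278 bp upstream, in no exon), and it matches none of the motifs searched.
Mmp2 region: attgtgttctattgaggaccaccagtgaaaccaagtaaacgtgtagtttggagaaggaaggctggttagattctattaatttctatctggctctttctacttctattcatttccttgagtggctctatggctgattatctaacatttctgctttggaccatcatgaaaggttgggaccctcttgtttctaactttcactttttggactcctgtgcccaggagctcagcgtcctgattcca

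The inhibitor genes were covered to 42.2% at Timp3, 36.1% at Timp2 and 16.9% at Timp1. Over its gene body alone, Timp1 was covered to 32.2%, above the all-gene median of 19.0% for gene bodies. Timp1 and Timp3 each lie inside a larger gene on the opposite strand, Syn1 and Syn3, so regions counted for them are also regions of those synapsin genes. Timp3 had 58.9% of the bases within 5 kb of its TSS covered, with the nearest regions 1188 bp upstream and 1123 bp downstream. Across the group, coverage ran from the second lowest value of the 43 genes to values above the all-gene upper quartile of 36.0%.

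Of pairs of listed genes that neighbour each other, Col3a1 and Col5a2 on chromosome 1 end tail to tail 24614 bp apart. The gap held 6 regions over 46.1% of its length, and the locus of 201.7 kb, with 5 kb on either side, was covered to 37.0%. Covered stretches therefore continued from the 3′ end of Col3a1 into the space before Col5a2, of which 69.9% of the downstream 5 kb was covered. By contrast, the gap between Col6a2 and Col6a1 was covered to 12.3% by 14 regions.

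Coverage around the starts of the 43 genes, pooled, was lowest beside the TSS. In the 500 bp before the TSS, 19.0% of bases were covered, against 25.5% over all genes, and each 500-bp bin from 1500 bp upstream to 3000 bp downstream was at 19.0% to 22.6%. Coverage peaked at 40.3% between 5000 and 5499 bp downstream, against 26.3% over all genes. Over all genes the profile was nearly flat, between 24.9% and 27.1%. At that peak 22 of the 43 genes had a region in the bin, against 12 in the 500 bp before the TSS. Long regions such as those over the starts of Fn1 and Col3a1 span many neighbouring bins, and the profile has no replicate. The median covered share of single genes within 5 kb of the TSS was 22.8% (16.8 to 29.9), beside 21.5% for all genes. Within 1 kb it was 7.75% beside 10.5%, so the order of matrix genes and all genes turned with the width of the window.

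**Figure D4:**
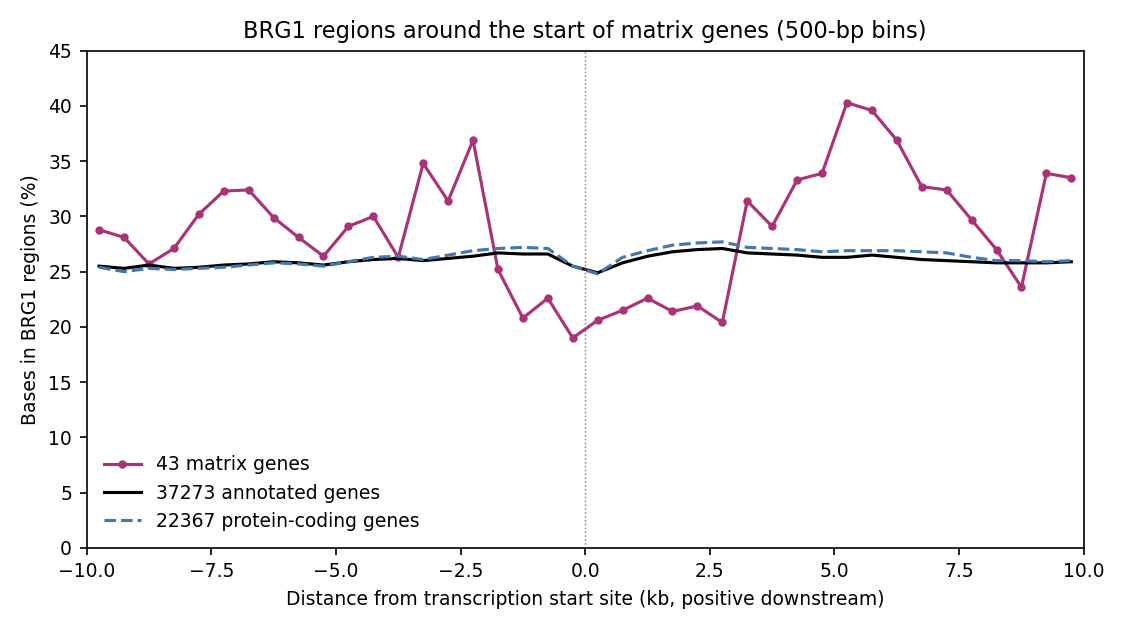
Percentage of bases in BRG1 regions (y axis) in 500-bp bins by distance from the TSS (x axis, kb) for the 43 matrix genes, all annotated genes and protein-coding genes, each pooled over genes. The matrix genes fall to 19.0% just before the TSS and reach 40.3% about 5 kb downstream, while the other lines stay between 24.8% and 27.7%.

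With bases pooled over genes, the 3′ end was the most covered part of the matrix genes. Among the 39 of at least 10 kb, the 3′-most of 5 equal parts of the gene body was covered to 34.1%, beside 27.4% in 13506 protein-coding genes of that length. The 5 kb downstream were covered to 32.7%, beside 26.5%. Exons were covered to 30.8%, beside 26.9%, while the first intron (28.5% beside 26.9%) and the other introns (29.1% beside 27.7%) were closer to other genes. The middle part was lower than in other genes, at 24.5% beside 27.4%. Medians over genes, which give long genes no extra weight, differed in part from these pooled values. By medians, the 3′-most part stood at 26.9% beside 20.6%, little above the first part (26.2%) and below the introns after the first (28.4%), and 31 of the 39 genes (79.5%) had any coverage there, as did 79.3% of the protein-coding genes. The 5 kb downstream were at 28.1% beside 16.2%, the widest gap by medians, while the 5 kb upstream turned from 28.0% beside 27.0% when pooled to 13.2% beside 18.6%. The middle part was then higher than in other genes (23.5% beside 21.4%), and the first intron (23.7% beside 17.8%) lay further from other genes than exons did (25.2% beside 21.9%).

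**Figure D5:**
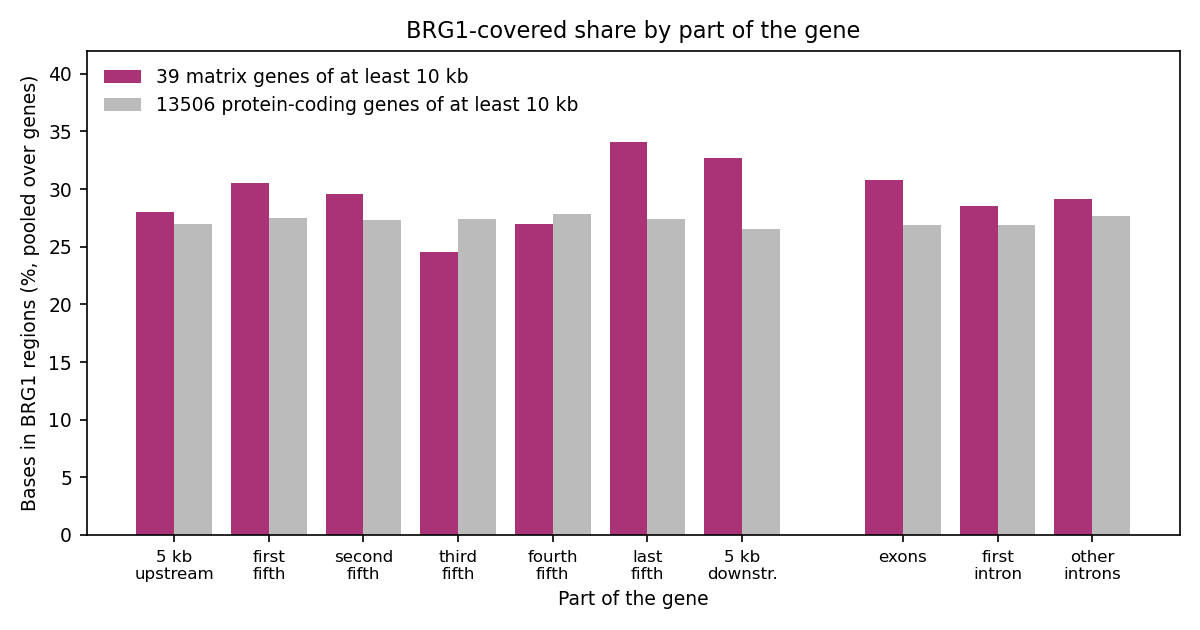
Percentage of bases in BRG1 regions (y axis), pooled over genes, in each part of the gene (x axis) for 39 matrix genes and 13506 protein-coding genes of at least 10 kb. The part of the body nearest the 3′ end (34.1%) and the 5 kb downstream (32.7%) are the most covered parts of the matrix genes in these pooled values.

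Counted once each, 727 regions lay in the windows of the 43 genes. Their median length was 660 bp, beside 600 bp in the whole list, and 33 of them (4.54%) exceeded 5 kb, beside 4.19%. The lengths of regions at matrix genes were thus close to those elsewhere. Relative to the 500 kb on either side, 25 of 43 windows were more covered, with a median difference of 2.29 points. In protein-coding genes of at least 10 kb, 50.6% were more covered and the median difference was 0.191 points.

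Covered share had little relation to base composition or to the neighbourhood. Across the 43 genes, Spearman's rho was -0.086 with GC content and 0.0081 with the coverage of the 500 kb on either side. It was 0.24 with gene length and 0.35 with region density. These are descriptions across genes of 1 list, and genes are not independent replicates. Within the windows, GC content was 44.4% inside regions and 44.9% outside.

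The 6 motifs were searched on both strands in 300 bases at each promoter, from 250 before to 50 after the TSS. GGGCGG, the Sp1 box, was present in 23 of 43 promoters (53.5%), beside 30.4% of all promoters and 43.4% of protein-coding ones. CCAAT was found in 18 (41.9% beside 38.4% of all), TATAAA in 8 (18.6% beside 16.2%) and the TEAD motif GGAATG in 7 (16.3% beside 14.6%). The AP-1 motif TGANTCA was present at Col6a1, Lum and Mmp3 (6.98% beside 7.56%), and the C/EBP motif TTGCNNAA at Col6a2, Postn, Mmp3 and Timp2 (9.3% beside 10.8%). Apart from GGGCGG, the shares were near those of all promoters. The windows of the 43 genes had a median GC content of 47.2%, beside 44.6% in protein-coding genes. Inside and outside the regions of the windows, matches were about as frequent, with AP-1 at 0.348 and 0.322 per kb and C/EBP at 0.465 and 0.459 per kb. A match describes letters and does not show that a factor binds.

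Other genes of the same pathways gave medians on either side of the 43 genes. The 22 other collagens had a median covered share of 27.3%, and 15 of them exceeded the all-gene median. The 14 genes of collagen processing, such as prolyl and lysyl hydroxylases and Serpinh1, had 28.5%, with 10 above. The 7 collagen receptors had 31.9%, with 4 above, and the 8 other proteoglycans 31.5%, with 6 above. The 14 laminins and other basement membrane genes had 26.2%, with 8 above, and the list of other MMP genes and Timp4 (20 in all) had 22.0%, with 9 above. All these medians except that of the other MMP genes exceeded the all-gene 24.0%, as did the 26.3% of long protein-coding genes. Single genes stood out more than lists: Mmp24, for a membrane-type MMP of neurons, was covered to 64.4%, Aspn, for asporin, to 56.7%, and Pcolce, an enhancer of procollagen processing, to 55.0%, and these were picked after their values were seen.

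The label of heart tissue could not be checked by the presence of regions, because markers of tissue that should be absent had them too. All 6 neuron markers had a region in their windows, with a median covered share of 21.6%, while the 8 cardiomyocyte markers had 31.4%. The TSS lay inside a region at 3 of 8 cardiomyocyte markers (Ryr2, Actc1 and Myl2) and at 0 of 6 neuron markers, lists too short to set against the 24.7% of all genes (intervals 8.52 to 75.5% and 0 to 45.9%). The 6 epicardial markers had 39.8% and the 6 fibroblast markers 20.8%, with the TSS in a region at 2 and 0 of them. Tcf21, counted here as a fibroblast marker, is named by the paper as a fetal epicardial locus. Moving it would lower the epicardial median and raise the fibroblast one. Endothelial markers had 24.1% (6 genes, 0 TSS inside), macrophage and leukocyte markers 29.4% (7 genes, 2 inside) and smooth muscle markers 30.4% (4 genes, 1 inside). Fibroblasts make most of the fibrillar collagen; their 6 markers ran from 2.34% at Tcf21 to 49.7% at Dpt, so the marker list was too mixed to set against the fibrillar collagen genes. The part of cell mixture in these values was not tested.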

How the data were processed

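BRG1 ChIP and input libraries (2 of each from Tβ4- and PBS-primed, injured hearts) were grouped by their labels. Per the submitters' processing notes, reads were mapped to mm9 with Bowtie 1.0.0 and regions were called with MACS2 2.0.10; the authors deposited region starts and ends in bp. The paper's methods name the bdgcomp function of MACS2, but the deposited list is named like output of a MACS2 comparison between conditions, so the calling function is not certain; how duplicates were combined is not given in the sources used here. PBS-primed, input and signal data were not analysed here.

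Regions with at least 1 bp in a window were counted, and covered bases summed, for every GENCODE gene of mm9 (Python 3.11.15, numpy 2.4.6, pandas 2.3.3, scipy 1.17.1, matplotlib 3.10.9). The counting was tested on simulated regions. Sequences were read from the mm9 genome. Genes described singly were the highest and lowest of each role, those with the TSS inside a region, those beyond the 90th or 10th length-matched percentile, neighbouring pairs and the 3 longest regions; other genes are given more briefly. No test was run, since 1 list without replicates or a second condition allows none. Members, lists and motifs were chosen with earlier results of these data known. Alternatives varied region joining, length, windows, gene sets and matching. The share of repeats was not computed, since the genome used marks none.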

Additional observations from a re-analysis of the deposited data

How the results depend on the processing

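The covered share of gene windows (26.4% to 30.4% over 7 alternatives), the count above the all-gene median (25 to 32 genes, 7 alternatives) and the length-matched percentile (57.0 to 63.0, 8 alternatives) stayed within their intervals or within 1.5 times. The gap from all genes was wider with the gene body alone (29.3% beside 19.0%, with 32 genes above), where the length-matched percentile was 60.0. With regions under 600 bp left out, the share was 26.4% beside 19.9%. Region density fell to 0.168 per kb with regions within 500 bp joined (all genes 0.172) and to 0.122 with regions under 600 bp left out (all genes 0.106), since both leave fewer regions. Joining thus put the matrix genes slightly below all genes in density. The covered share around the TSS was 7.75% within 1 kb (all genes 10.5%) and 12.7% within 2 kb (all genes 14.8%), below all genes, against 22.8% within 5 kb, above them. Counting any transcript start, 17 genes had a start inside a region (39.5%, beside 32.8% of all genes), and the other 3 alternatives gave 5 to 7. That put the matrix genes above all genes instead of below, with the number of starts per gene not matched. No paired analysis was possible because the list does not separate replicates. The authors' threshold could not be varied, and no region's strength is known.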
